A study of Mus musculus with 12 samples.

Results

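The lysosome genes described here are 35 genes that build or run the lysosome: 11 encode proteins of its membrane, 12 encode hydrolases, 3 encode soluble cofactors, 8 encode subunits or accessory proteins of its proton pump, and 1 is Tfeb. They were chosen by symbol from the table of 27179 genes, and a gene was kept if its level reached 1 CPM (reads scaled to a common library size) in 3 or more of the 12 libraries. All 35 of 35 listed genes were kept, each reached 1 CPM in all 12 libraries, and all 35 were among the 13415 genes tested. Measured differences did not enter the rule, which is a list of symbols with this minimum.

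Lysosomes are acidic compartments in which hydrolases break down proteins, lipids and glycans delivered by endocytosis, phagocytosis and autophagy. The vacuolar proton pump, made of a membrane-bound V0 sector and a cytosolic V1 sector, keeps the lumen acidic, heavily glycosylated membrane proteins line the compartment, and transporters export what the hydrolases release. In dendritic cells, phagosomes and lysosomes process antigen, and conventional dendritic cells of type 1 (cDC1) are known for presenting material from engulfed cells on MHC class I, whereas those of type 2 (cDC2) are known for presentation on MHC class II. The transcription factor encoded by Tfeb is known in other cell types as an activator of lysosomal genes, through a promoter motif that contains an E-box.

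Polyadenylated RNA of cDC1 and cDC2 isolated from spleens of female C57/BL6 mice was sequenced in 4 groups of 3 libraries. The KO mice carry the label zfp366-/- and the WT mice zfp366+/+; Zfp366 encodes the zinc finger protein DC-SCRIPT. The spleens were digested with collagenase and DNAse, without any other treatment in the labels. Pools 1 to 3 of mice were KO and pools 4 to 6 were WT, each pool gave 1 cDC1 and 1 cDC2 library, and neither the age of the mice nor the number per pool is given. Since these are bulk samples, fewer cells of a type and less RNA per cell cannot be told apart.

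Several features of the libraries bear on every result below. Total reads ran from 11330503 to 36761685 per library. The cDC1 libraries held more of the 9 cDC1 markers, with summed levels of 6039 to 8550 CPM against 797 to 1323 CPM in cDC2. Most of each cDC2 sum was Wdfy4, at 533 to 1185 CPM, against 983 to 3782 CPM in cDC1. Wdfy4 and Batf3 overlapped between the subsets, and the other cDC1 markers did not. The cDC2 libraries held more of the 8 cDC2 markers, with 3814 to 7604 CPM against 101 to 691 CPM in cDC1. Of these, Itgam alone overlapped. Zfp366 itself was at 48.8, 48.4 and 45.4 CPM in KO cDC1, against 152, 89.2 and 67.5 CPM in WT cDC1 (log2 fold change -1.12, SE 0.27, adjusted p = 0.0326). In cDC2 it was at 55.0, 80.6 and 65.1 CPM in the libraries labelled KO, against 52.6, 62.4 and 57.4 CPM in WT (0.22, adjusted p = 1), so the level of the targeted gene did not separate these libraries, and they are called libraries labelled KO below. The sources used here do not say which bases of Zfp366 the allele lacks. In each group the library numbered 1 stood apart by the chi-square per degree of freedom between counts, a measure that grows with read depth. It was 72.02 to 424 between that library and the others of its group, against 14.5 to 56.3 between the libraries numbered 2 and 3. By correlation of log2 CPM, replicate 1 also stood apart in each group but WT cDC2. There replicate 1 correlated with replicate 2 at 0.943 and with replicate 3 at 0.887, and replicates 2 and 3 correlated at 0.938. Libraries numbered 1 held 7.79 to 13.3 CPM of erythroid and platelet markers, against 46.5 to 132 CPM in the others. Among the cDC1 markers, WT cDC2 replicate 1 held more Clec9a (27.9 CPM, against 3.44 and 1.09 CPM in replicates 2 and 3) and Cd8a (62.2, against 2.98 and 4.65 CPM). Xcr1, Irf8, Cadm1 and Tlr3 were also higher there than in replicates 2 and 3. Wdfy4 (533 CPM, against 829 and 893 CPM) and Batf3 were lower there, and Itgae lay between. The summed cDC1 markers were at 797 CPM in that library, the lowest of the cDC2 libraries. Results are therefore given with all libraries and, where the call or size moves, within replicates 2 and 3. That pair was set apart after these differences were seen, so its spread is small by selection. The p-values and counts called within replicates 2 and 3 are too favourable for that reason and serve as descriptions.

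Per kilobase of gene length, the 35 genes covered a wide range, and their order differed between the subsets. Psap, the precursor of the saposins that help hydrolases reach their lipid substrates, had the highest mean level in cDC1, at 4073 ± 247 RPKM (CPM divided by gene length in kilobases) in KO and 5650 ± 507 RPKM in WT (SD, n = 3 each). Ppt1, the thioesterase that removes palmitate from proteins, was next in cDC1, at 988 ± 36.6 RPKM in KO and 2376 ± 645 RPKM in WT. In cDC2 the highest mean level was that of Laptm5, a membrane protein of lysosomes in blood cells, at 828 ± 292 RPKM in libraries labelled KO and 657 ± 103 RPKM in WT, and its spread overlapped that of Psap, at 604 ± 452 and 639 ± 91.6 RPKM. Lamp1, the abundant glycoprotein that lines the membrane, followed at 231 ± 71.2 RPKM in cDC2 libraries labelled KO and 186 ± 73.3 RPKM in WT cDC2. At the low end, Galc, the galactosylceramidase, was at 0.67 ± 0.50 RPKM in cDC2 libraries labelled KO and 0.62 ± 0.33 RPKM in WT cDC2, the lowest mean of the 35 in both groups. In WT cDC1 the lowest mean was that of the pump subunit Atp6v0a1, at 4.00 ± 2.27 RPKM, a spread that overlapped those of Npc1, Mcoln1 and Ctns.

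Summed over the 35 genes, lysosome transcripts took 24726, 22106 and 23069 CPM in KO cDC1, against 29711, 35820 and 32750 CPM in WT cDC1. In cDC2 the sums were 10825, 6781 and 7223 CPM in libraries labelled KO, against 9269, 7717 and 6841 CPM in WT. All cDC1 sums thus lay above all cDC2 sums, and within cDC1 the KO sums lay below the WT sums without overlap. Psap, Ppt1 and Naaa, an acid amidase for fatty acid ethanolamides, made up 65.8% to 66.8% of the sum in KO cDC1, 74.0005% to 76.7% in WT cDC1, 16.1% to 30.7% in cDC2 libraries labelled KO and 24.0% to 27.1% in WT cDC2. The 32 other genes together were at 7359 to 8449 CPM in KO cDC1 and 7725 to 8364 CPM in WT cDC1, ranges that overlap, and at 5681 to 7498 CPM in cDC2 libraries labelled KO and 5152 to 7043 CPM in WT cDC2.

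**Figure D1:**
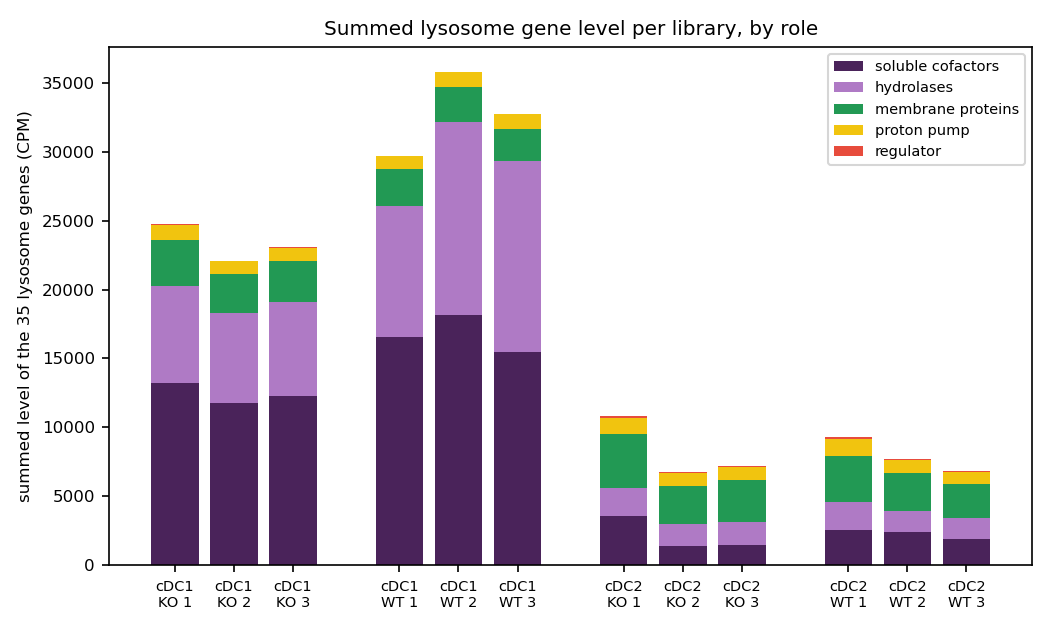
Summed level of the 35 lysosome genes in each of the 12 libraries in CPM, stacked by role, with KO left of WT in each subset (cDC2 KO bars are the libraries labelled KO). The bars of cDC1 reach 22106 to 35820 CPM and those of cDC2 6781 to 10825 CPM, and cofactors and hydrolases make up most of the gap.

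By role, the hydrolases summed to 6819 ± 258 CPM in KO cDC1 and 12477 ± 2544 CPM in WT cDC1, and the 3 cofactors to 12403 ± 750 CPM in KO cDC1 and 16705 ± 1362 CPM in WT cDC1. The pump genes were near one level in every group: 985 ± 73.4 CPM in KO cDC1, 1031 ± 86.1 CPM in WT cDC1, 999 ± 145 CPM in cDC2 libraries labelled KO and 1016 ± 183 CPM in WT cDC2. Membrane protein genes summed to 3026 ± 261 CPM in KO cDC1, 2511 ± 204 CPM in WT cDC1, 3275 ± 570 CPM in cDC2 libraries labelled KO and 2815 ± 469 CPM in WT cDC2. These sums are descriptions, and no test was run on them.

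**Figure D2:**
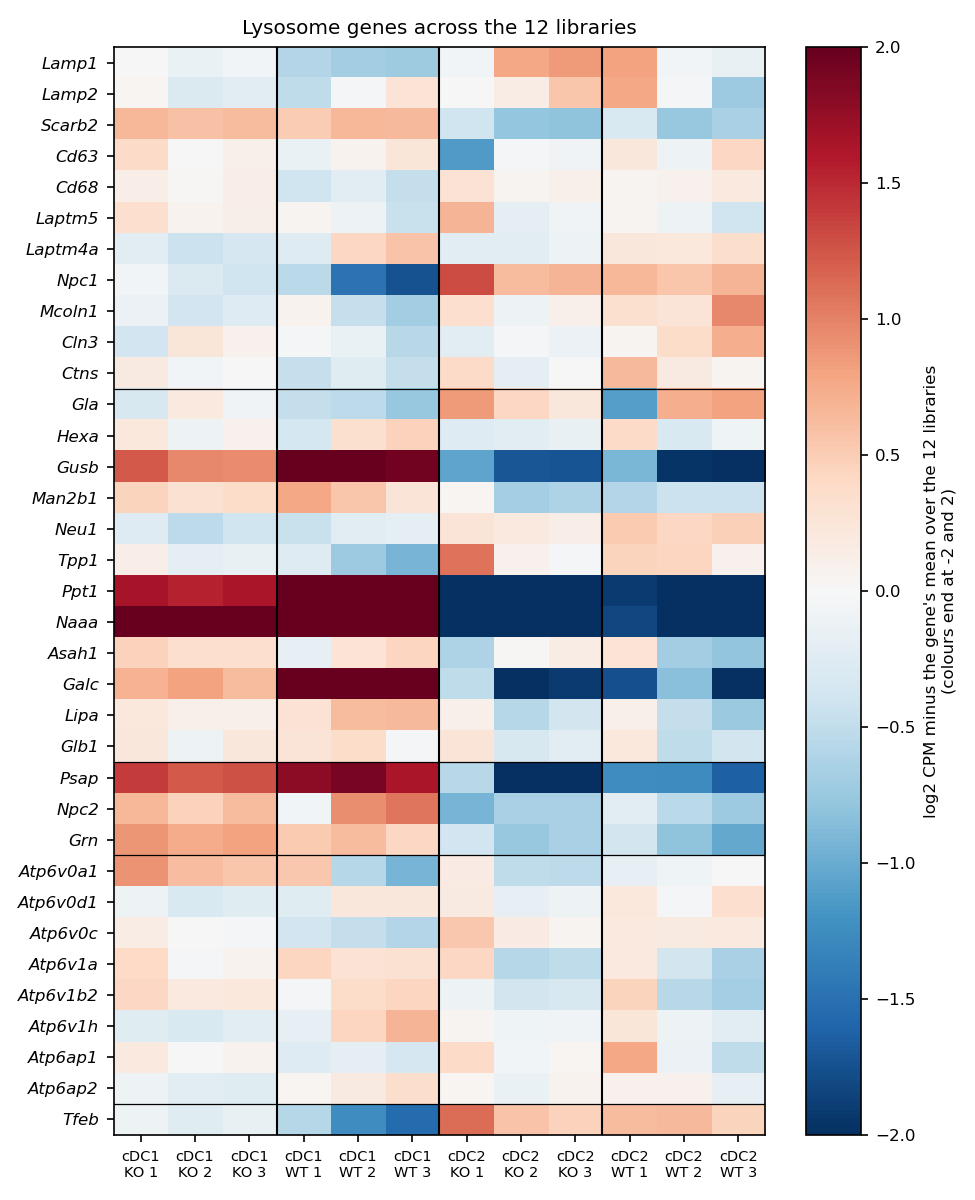
Level of each of the 35 lysosome genes (rows, grouped by role) in the 12 libraries (columns, KO left of WT in each subset), as log2 CPM (with 0.1 CPM added) minus the gene's mean over all libraries, with colours ending at -2 and 2. Gusb, Ppt1, Naaa, Galc and Psap separate cDC1 from cDC2, most pump genes stay pale, and Lamp1 in cDC2 is high in replicates 2 and 3 labelled KO and in WT replicate 1.

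Promoter sequence was examined for the motif through which Tfeb is known to act. RefSeq windows on GRCm38.p6, from 250 bases before to 50 bases after a transcript start, were at hand for 31 of the 35 genes. The E-box CACGTG, which reads the same on both strands, occurred in the windows of 7 of these 31 genes, 22.6%, and in 11.6% of the 10086 tested genes with a window. The 7 were Atp6v0d1, Atp6v1a, Cln3, Gla, Glb1, Lamp1 and Mcoln1. The longer CLEAR motif of 10 bases, an E-box with 2 fixed bases on each side that also reads the same on both strands, occurred in 1 of the 31, Cln3 (3.23%), and in 0.793% of the tested genes with a window. Matches are descriptions of these letters and not evidence of binding.

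The windows below are those of the 2 lysosome genes whose level fell in KO cDC1 (Ppt1 and Galc), of the one with the largest subset difference (Naaa), of the one with the most E-boxes (Lamp1) and of the one with the CLEAR motif (Cln3). Ppt1 is at chr4:122835977-122836276 on the plus strand, Galc at chr12:98259410-98259709 on the minus strand, Naaa at chr5:92278132-92278431 on the minus strand, Lamp1 at chr8:13158911-13159210 on the plus strand and Cln3 at chr7:126583187-126583486 on the minus strand. Capitals mark the E-boxes and, in Cln3, the whole CLEAR motif.

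Ppt1: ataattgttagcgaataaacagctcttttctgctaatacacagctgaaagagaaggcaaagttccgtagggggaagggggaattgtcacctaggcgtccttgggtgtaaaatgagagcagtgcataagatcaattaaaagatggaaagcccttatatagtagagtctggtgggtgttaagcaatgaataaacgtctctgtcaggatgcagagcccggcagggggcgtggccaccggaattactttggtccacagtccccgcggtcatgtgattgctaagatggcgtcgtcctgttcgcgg

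Galc: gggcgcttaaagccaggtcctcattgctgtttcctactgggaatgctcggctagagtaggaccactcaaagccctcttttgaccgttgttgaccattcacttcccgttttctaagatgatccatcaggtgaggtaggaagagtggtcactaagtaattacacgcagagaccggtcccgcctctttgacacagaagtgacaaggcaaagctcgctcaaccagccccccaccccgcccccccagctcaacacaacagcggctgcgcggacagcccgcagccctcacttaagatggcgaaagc

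Naaa: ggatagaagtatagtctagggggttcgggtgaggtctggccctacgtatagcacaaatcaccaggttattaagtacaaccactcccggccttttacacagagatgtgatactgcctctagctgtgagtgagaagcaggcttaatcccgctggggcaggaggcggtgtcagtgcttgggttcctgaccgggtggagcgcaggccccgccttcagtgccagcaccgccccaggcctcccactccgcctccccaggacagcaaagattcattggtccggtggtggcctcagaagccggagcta

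Lamp1: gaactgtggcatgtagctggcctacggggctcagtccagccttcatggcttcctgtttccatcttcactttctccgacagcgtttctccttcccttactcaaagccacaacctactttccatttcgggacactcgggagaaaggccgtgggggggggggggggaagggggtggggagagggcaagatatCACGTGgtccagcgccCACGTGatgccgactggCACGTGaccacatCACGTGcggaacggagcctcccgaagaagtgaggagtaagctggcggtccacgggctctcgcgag

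Cln3: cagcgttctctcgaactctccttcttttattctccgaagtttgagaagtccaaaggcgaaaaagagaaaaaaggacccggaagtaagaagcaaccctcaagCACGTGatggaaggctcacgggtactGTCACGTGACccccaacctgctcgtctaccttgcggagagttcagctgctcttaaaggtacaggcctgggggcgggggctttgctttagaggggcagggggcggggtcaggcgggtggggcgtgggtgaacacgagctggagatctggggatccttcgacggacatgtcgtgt

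Lamp1 held 4 E-boxes in the stretch from 61 to 15 bases before its start. Cln3 held 2, of which the one nearer the start lies inside the CLEAR motif. The windows of Ppt1, Galc and Naaa held neither motif. Nothing follows from that about Tfeb.

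The first comparison set cDC1 against cDC2 in WT mice and describes how the lysosome of the subsets differs in transcripts. Of the 35 genes, 10 were higher in WT cDC1 (10.4% of all tested genes were) and 8 were lower (10.9% of all tested genes were), by an adjusted p below 0.05 in edgeR's quasi-likelihood test with Benjamini-Hochberg adjustment over all tested genes. Hydrolases and cofactors were on the higher side, with 6 of 12 hydrolases and 3 of 3 cofactors higher, while 4 of 11 membrane protein genes, 2 hydrolases, 1 pump gene and Tfeb were lower. The median log2 fold change was 0.02 over the 35 genes and 0.02 over all tested genes.

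Naaa differed most between the WT subsets. It was at 2292, 4022 and 3941 CPM in WT cDC1 replicates 1, 2 and 3, against 107, 54.0 and 58.3 CPM in WT cDC2. The groups were far apart, and the highest WT cDC2 value was that of replicate 1. The log2 fold change was 5.55 (SE 0.44, adjusted p = 2.85e-06), a 46.7-fold higher level in cDC1, and 6.16 within replicates 2 and 3.

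Ppt1 was at 4073, 6723 and 6974 CPM in WT cDC1, against 213, 164 and 173 CPM in WT cDC2. No library overlapped, and WT cDC1 replicate 1 was the lowest of its group. The difference was 5.01 on the log2 scale (SE 0.29, adjusted p = 2.17e-07), 32.3-fold. The exons of Ppt1 share 129 bases (3.51% of its exonic length) with those of Cap1 on the opposite strand, and whether the authors' counting used strand is not given in the sources used here.

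Galc was a low gene in cDC2. Its level was 46.0, 33.5 and 35.3 CPM in WT cDC1, against 1.89, 3.67 and 1.37 CPM in WT cDC2, without overlap. The log2 difference was 4.02 (SE 0.50, adjusted p = 0.000101), 16.3-fold.

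Gusb, the beta-glucuronidase that cleaves glycosaminoglycans, was at 949, 902 and 797 CPM in WT cDC1, against 110, 53.3 and 51.1 CPM in WT cDC2. Again the groups did not overlap, and WT cDC2 replicate 1 was the highest of its group. The log2 difference was 3.63 (SE 0.33, adjusted p = 8.74e-06), 12.4-fold.

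Psap, given for each library after its values were seen because it was the most abundant of the 35 genes in cDC1, was at 15622, 16711 and 13961 CPM in WT cDC1, against 1905, 1875 and 1458 CPM in WT cDC2. All WT cDC1 libraries lay above all WT cDC2 libraries (log2 difference 3.14, SE 0.44, adjusted p = 0.000219, 8.84-fold). The other cofactors were higher in WT cDC1 by less. Grn, the progranulin precursor, differed by 1.24 (SE 0.21, adjusted p = 0.00104), and Npc2, which hands cholesterol to the membrane protein encoded by Npc1, by 1.21 (SE 0.28, adjusted p = 0.00811). The Npc2 call ended in 2 of 19 alternatives, the mouse pool block among them (adjusted p = 0.0584).

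The remaining genes that were higher in WT cDC1 were Scarb2, Man2b1 and Lipa. Scarb2, the receptor that carries glucocerebrosidase to the lysosome, was the single membrane protein gene among them, at 120, 135 and 132 CPM in WT cDC1, against 68.1, 49.9 and 53.8 CPM in WT cDC2. The groups did not overlap (1.17, SE 0.19, adjusted p = 0.00075). Man2b1, the alpha-mannosidase, differed by 1.03 (SE 0.24, adjusted p = 0.00832) and Lipa, the acid lipase, by 0.86 (SE 0.25, adjusted p = 0.0277). The Lipa call ended in 6 of 19 alternatives, at an adjusted p of up to 0.118, the mouse pool block among them. Hydrolases that did not pass in WT were Hexa, a beta-hexosaminidase subunit (0.16), Glb1, the beta-galactosidase (0.40), Asah1, the acid ceramidase (0.52), and Gla, the alpha-galactosidase (-0.95). All 4 passed within replicates 2 and 3, Hexa at 0.60, Glb1 at 0.64, Asah1 at 1.11 and Gla at -1.40, and Asah1 (0.95) and Gla (-1.35) also passed without WT cDC2 replicate 1 alone.

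**Figure D3:**
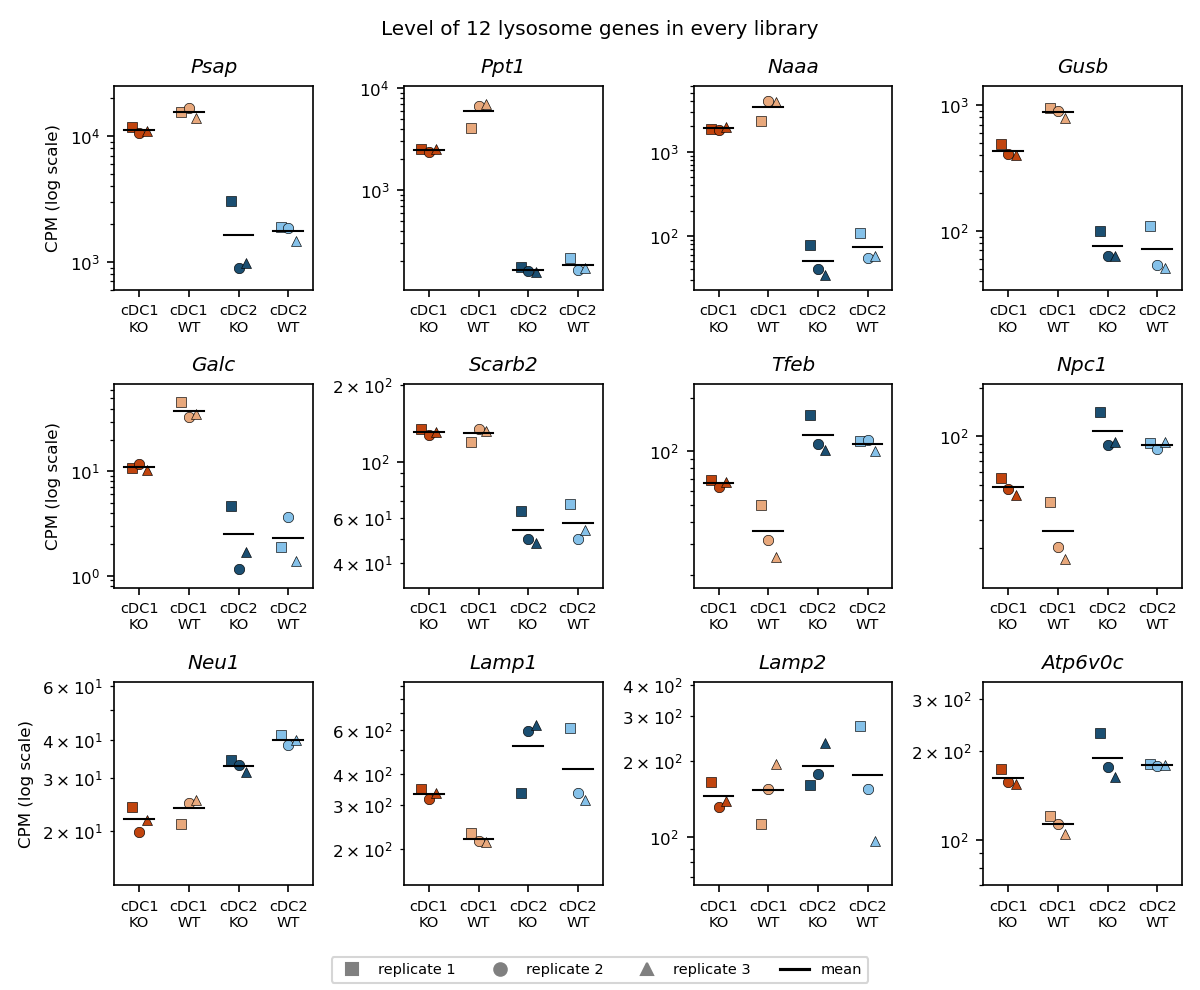
Level of 12 lysosome genes in CPM on log axes, 1 panel a gene, with a marker for each replicate, a black line at the mean and KO left of WT in each subset (cDC2 KO are the libraries labelled KO). Psap, Ppt1, Naaa, Gusb, Galc and Scarb2 are higher in all cDC1 than in all cDC2 libraries, and Tfeb, Npc1 and Neu1 are lower; Lamp1, Lamp2 and Atp6v0c overlap between the subsets.

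Among the genes that were lower in WT cDC1, Npc1 and Tfeb stood out. Npc1, the membrane protein that exports cholesterol from the lysosome, was at 39.1, 20.4 and 17.1 CPM in WT cDC1, against 90.2, 83.6 and 91.5 CPM in WT cDC2. There was no overlap, and WT cDC1 replicate 1 was closest to cDC2 (-1.79, SE 0.30, adjusted p = 0.000999). Its exons share 511 bases (4.52%) with those of Rmc1 on the opposite strand.

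Tfeb was at 49.98, 31.3 and 25.4 CPM in WT cDC1, against 115, 116 and 101 CPM in WT cDC2. The lowest WT cDC2 library was above the highest WT cDC1 library, and the log2 difference was -1.64 (SE 0.26, adjusted p = 0.000682), a 3.11-fold lower level in cDC1. Any link between the level of Tfeb and those of the other genes was not tested.

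Neu1, the sialidase, was at 21.1, 24.8 and 25.4 CPM in WT cDC1, against 41.5, 38.4 and 40.1 CPM in WT cDC2. The ranges were narrow and did not meet (-0.75, SE 0.18, adjusted p = 0.00878). Atp6v0c, the proteolipid of the V0 ring, was at 120, 113 and 105 CPM in WT cDC1, against 180, 178 and 179 CPM in WT cDC2. It was the single pump gene of the 8 to pass (-0.67, SE 0.18, adjusted p = 0.0188). The call is uncertain, since the near-identical Atp6v0c-ps2 held 43151 reads of its own. It also ended in 5 of 19 alternatives, gene length offsets among them (adjusted p = 0.167).

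Lamp1 was at 231, 214 and 213 CPM in WT cDC1, against 610, 335 and 313 CPM in WT cDC2. All WT cDC1 libraries were lower, but WT cDC2 replicate 1 was far above replicates 2 and 3. The log2 difference was -0.93 (SE 0.29, adjusted p = 0.0371), and it was -0.56 without WT cDC2 replicate 1 (adjusted p = 0.145). The Lamp1 call ended in 8 of 19 alternatives, the mouse pool block among them (adjusted p = 0.0819). Lamp2, the second major membrane glycoprotein, was at 113, 156 and 194 CPM in WT cDC1, against 274, 155 and 97.0 CPM in WT cDC2. These values overlap fully (-0.19, SE 0.33, adjusted p = 0.742).

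Also lower in WT cDC1 were Tpp1, a tripeptidyl peptidase (-0.94, SE 0.30, adjusted p = 0.0412), Mcoln1, the calcium channel of the lysosomal membrane (-0.87, SE 0.27, adjusted p = 0.0355), and Ctns, the cystine exporter (-0.71, SE 0.23, adjusted p = 0.0426). The calls of Mcoln1 and Ctns ended in 10 and 13 of 19 alternatives, the mouse pool block among them. Their adjusted p reached 0.156 and 0.151. The Tpp1 call ended in 8 of 19 alternatives, at an adjusted p of up to 0.132. With the mouse pool as a block, which the labels support because each pool gave both subsets, 13 of the 35 genes passed. All were among the 18 of the fit without it, and 16.7% of all tested genes passed with that block. Within replicates 2 and 3, 28 of the 35 passed, 16 higher (23.2% of all tested genes) and 12 lower (24.3%), and all 18 were among them; 47.5% of all tested genes passed there in either direction.

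In KO mice Naaa, Ppt1, Psap, Gusb and Galc again had the largest differences between cDC1 and cDC2. Of the 35 genes, 9 were higher in cDC1 (8.45% of all tested genes were) and 3 were lower (8.43%), and all 12 were also called in WT in the same direction. The median log2 fold change was 0.13 over the 35 genes and -0.00 over all tested genes. These contrasts rest on other libraries than the WT ones, and the change between them is tested further below.

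Naaa was at 1879, 1828 and 1958 CPM in KO cDC1, against 77.0, 40.4 and 34.3 CPM in cDC2 libraries labelled KO. The groups were far apart (5.22, SE 0.43, adjusted p = 6.95e-06, 37.3-fold). Ppt1 was at 2527, 2358 and 2502 CPM in KO cDC1, against 175, 160 and 158 CPM in cDC2 libraries labelled KO. Both groups were tight here, and the log2 difference was 3.91 (SE 0.27, adjusted p = 2.58e-06, 14.99-fold).

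Psap was at 11871, 10560 and 10941 CPM in KO cDC1, against 3075, 900 and 973 CPM in cDC2 libraries labelled KO. One cDC2 library, replicate 1, was over 3 times as high as the other two, yet below every cDC1 library (2.75, SE 0.43, adjusted p = 0.000826; 3.51 within replicates 2 and 3). Gusb was at 489, 407 and 402 CPM in KO cDC1, against 100.4, 63.5 and 63.0 CPM in cDC2 libraries labelled KO, without overlap (2.52, SE 0.32, adjusted p = 0.000174).

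Galc was at 10.8, 11.7 and 10.3 CPM in KO cDC1, against 4.61, 1.15 and 1.68 CPM in cDC2 libraries labelled KO. The groups did not overlap, and the gap was 4.37-fold (2.13, SE 0.47, adjusted p = 0.00798). The log2 difference of Galc was 2.97 within replicates 2 and 3 and 1.21 between the libraries numbered 1. Scarb2 (1.28, SE 0.19), Grn (1.40, SE 0.21), Npc2 (1.33, SE 0.28) and Man2b1 (0.76, SE 0.24) were the other higher genes, and the Man2b1 call ended in 11 of 19 alternatives, the mouse pool block among them (adjusted p = 0.0782).

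The 3 lower genes were Npc1, Tfeb and Neu1. Npc1 was at 55.0, 46.8 and 43.2 CPM in KO cDC1, against 142, 88.7 and 91.9 CPM in cDC2 libraries labelled KO, without overlap (-1.15, SE 0.30, adjusted p = 0.0193). Tfeb was at 69.1, 62.9 and 66.7 CPM in KO cDC1, against 161, 110.4 and 102 CPM in cDC2 libraries labelled KO. The KO cDC1 libraries were all lower (-0.91, SE 0.26, adjusted p = 0.03). The Tfeb call ended in 6 of 19 alternatives, the mouse pool block among them (adjusted p = 0.0519).

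Neu1 was at 24.0, 19.9 and 21.9 CPM in KO cDC1, against 34.4, 32.9 and 31.4 CPM in cDC2 libraries labelled KO. Its groups were apart (-0.59, SE 0.18, adjusted p = 0.0381). The Neu1 call ended in 10 of 19 alternatives, at an adjusted p of up to 0.174, the mouse pool block among them (adjusted p = 0.101). With the mouse pool as a block 9 of the 35 genes passed (11.5% of all tested genes), and the 3 lost calls were those of Man2b1, Neu1 and Tfeb. The Npc1 call ended in 3 of 19 alternatives, at an adjusted p of up to 0.0887. Libraries did not overlap for 15 genes that were higher in cDC1 (25.1% of all tested genes) and 6 that were lower (22.7%). Within replicates 2 and 3, 18 of the 35 passed, 13 higher (25% of all tested genes) and 5 lower (24.2%), where 49.2% of all tested genes passed in either direction. Lamp1 did not pass here: it was at 347, 316 and 334 CPM in KO cDC1, against 335, 597 and 627 CPM in cDC2 libraries labelled KO, and replicate 1 of cDC2 lay within the range of cDC1 (-0.65, SE 0.29, adjusted p = 0.149). Atp6v0c did not pass either, at 174, 157 and 154 CPM in KO cDC1, against 229, 176 and 163 CPM in cDC2 libraries labelled KO, which overlap.

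**Figure D4:**
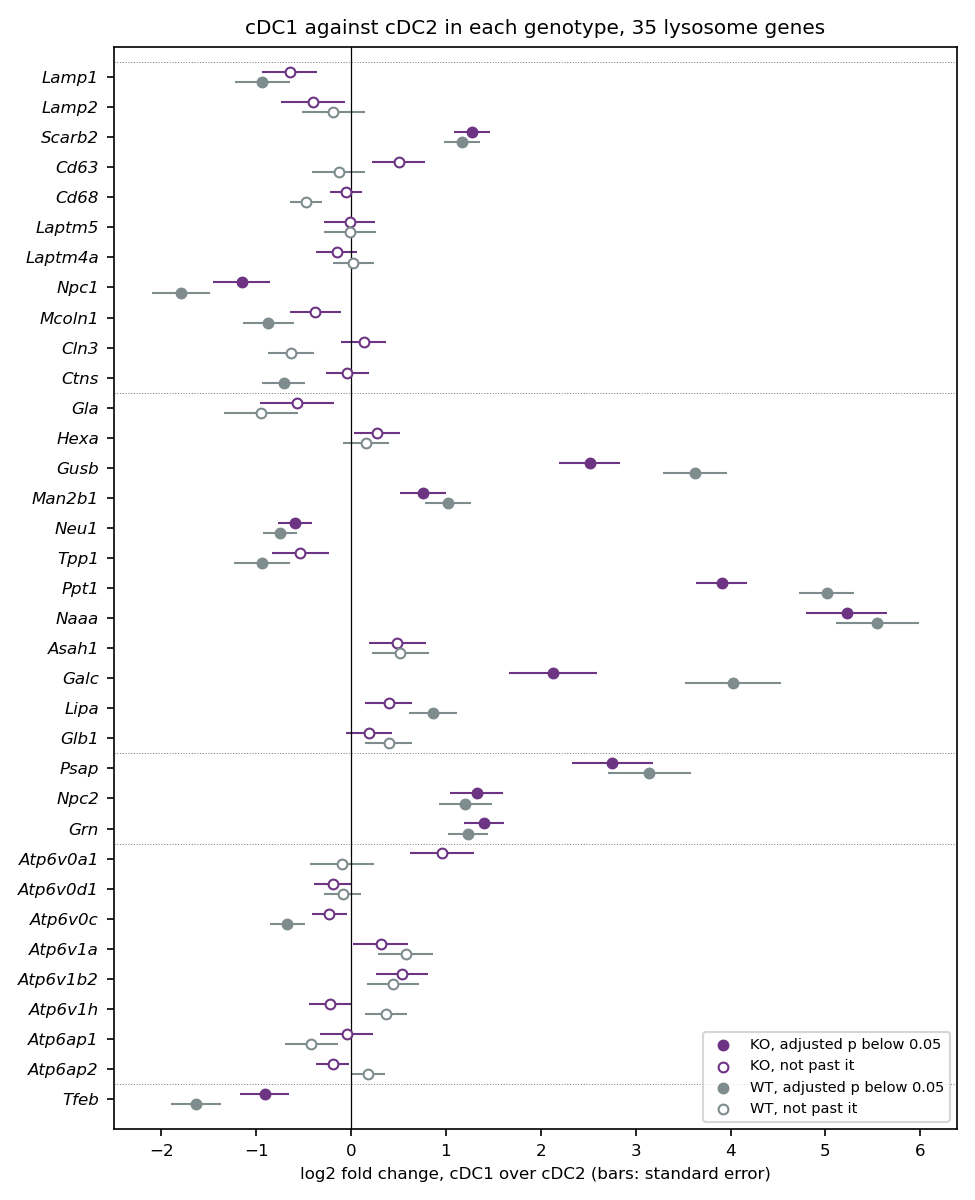
Log2 fold change of cDC1 over cDC2 for each of the 35 lysosome genes in the libraries labelled KO (purple, upper point) and in WT (grey, lower point), with bars of 1 standard error and filled points for an adjusted p below 0.05. Naaa, Ppt1, Galc, Gusb and Psap lie at 2.13 to 5.55 in both genotypes, and the 8 pump genes lie between -0.67 and 0.96.

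The next comparison asked what differed between KO and WT within cDC1. Of the 35 genes, 0 were higher (3.6% of all tested genes were) and 2 were lower, Ppt1 and Galc (1.72% of all tested genes were lower). Ppt1 (Entrez 19063) lies at chr4:122836077-122859175 and Galc (Entrez 14420) at chr12:98202287-98259459 on GRCm38. Both encode hydrolases; none of the 11 membrane protein genes, 3 cofactor genes or 8 pump genes passed, and neither did Tfeb. The median log2 fold change was 0.01 over the 35 genes and -0.00 over all tested genes. In either direction, 5.32% of all tested genes passed. At an unadjusted p below 0.05 there were 12 of the 35, 5 higher and 7 lower, and 2526 of all 13415 tested genes. In DESeq2 7 of the 35 passed, and 9.82% of all tested genes.

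Ppt1 was at 2527, 2358 and 2502 CPM in KO cDC1, against 4073, 6723 and 6974 CPM in WT cDC1. The KO libraries were alike and all below WT, where replicate 1 was well below replicates 2 and 3. Ppt1 fell by 1.27 on the log2 scale (SE 0.25, 95% confidence interval -1.83 to -0.70, adjusted p = 0.00889), to 0.416 of its WT level. The difference was -1.52 within replicates 2 and 3 and -0.69 between the libraries numbered 1. The call ended in 3 of 19 alternatives: without KO cDC1 replicate 2 (adjusted p = 0.0627) or 3 (0.0537), and without WT cDC1 replicate 2 (0.0551).

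Galc was at 10.8, 11.7 and 10.3 CPM in KO cDC1, against 46.0, 33.5 and 35.3 CPM in WT cDC1. Every KO library was below every WT library. Galc fell by 1.81 on the log2 scale (SE 0.45, 95% confidence interval -2.85 to -0.77, adjusted p = 0.0364), to 0.285 of its WT level. The call ended in 6 of 19 alternatives, without KO cDC1 replicate 1, 2 or 3 (adjusted p = 0.134, 0.132 and 0.154), without WT cDC1 replicate 2 (0.0917) or 3 (0.0888), and with the replicate number as a block (0.107).

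Gusb, Naaa and Psap, which were high in cDC1, did not pass between KO and WT cDC1, and the cofactor genes Npc2 and Grn did not either. Gusb was at 489, 407 and 402 CPM in KO cDC1, against 949, 902 and 797 CPM in WT cDC1, with no overlap (-1.03, SE 0.30, adjusted p = 0.0747). Naaa was at 1879, 1828 and 1958 CPM in KO cDC1, against 2292, 4022 and 3941 CPM in WT cDC1, with WT replicate 1 just above the KO libraries (-0.86, SE 0.36, adjusted p = 0.222). Psap was at 11871, 10560 and 10941 CPM in KO cDC1, against 15622, 16711 and 13961 CPM in WT cDC1, also without overlap (-0.47, SE 0.40, adjusted p = 0.572). Gusb passed, among other alternatives, with only the cDC1 libraries, with the replicate number as a block, with gene length offsets and in DESeq2.

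Tfeb was at 69.1, 62.9 and 66.7 CPM in KO cDC1, against 49.98, 31.3 and 25.4 CPM in WT cDC1. All KO libraries were above all WT libraries, and WT replicate 1 was the closest to KO (0.90, SE 0.26, adjusted p = 0.0681). Npc1 was at 55.0, 46.8 and 43.2 CPM in KO cDC1, against 39.1, 20.4 and 17.1 CPM in WT cDC1, again without overlap (0.92, SE 0.30, adjusted p = 0.105). Both passed with gene length offsets and without WT cDC1 replicate 1, and Tfeb also in DESeq2.

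Lamp1 was at 347, 316 and 334 CPM in KO cDC1, against 231, 214 and 213 CPM in WT cDC1. The groups were tight and apart (0.60, SE 0.29, adjusted p = 0.29), and Lamp1 passed in 1 of 19 alternatives, within replicates 2 and 3 (0.58, adjusted p = 0.000658). Lamp2 was at 165, 132 and 139 CPM in KO cDC1, against 113, 156 and 194 CPM in WT cDC1, which overlap (-0.09, SE 0.33, adjusted p = 0.92). Cd68, the macrosialin of phagocytes, was at 0.46 (SE 0.17, adjusted p = 0.159) and Laptm4a, a small membrane protein of late endosomes, at -0.61 (SE 0.22, adjusted p = 0.14) as log2 fold changes.

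Among the pump genes none passed, and their values had both signs. Atp6v0c was at 174, 157 and 154 CPM in KO cDC1, against 120, 113 and 105 CPM in WT cDC1, without overlap (0.52, SE 0.18, adjusted p = 0.137). Atp6v0a1, the large V0 subunit, had a log2 fold change of 0.88 (SE 0.34, adjusted p = 0.179), and Atp6v1h, a regulatory V1 subunit, one of -0.61 (SE 0.22, adjusted p = 0.152). The 8 pump genes ranged from -0.61 to 0.88 with a median of -0.09. Neu1 was at 24.0, 19.9 and 21.9 CPM in KO cDC1, against 21.1, 24.8 and 25.4 CPM in WT cDC1, which overlap (-0.12, SE 0.18, adjusted p = 0.764).

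Libraries of KO and WT cDC1 did not overlap for 20 of the 35 genes, 12 higher in KO (15.5% of all tested genes were) and 8 lower (11.4%). The higher ones were Atp6ap1, Atp6v0a1, Atp6v0c, Cd68, Ctns, Gla, Grn, Lamp1, Laptm5, Npc1, Tfeb and Tpp1, and the lower ones Atp6ap2, Atp6v1h, Galc, Gusb, Lipa, Naaa, Ppt1 and Psap. Within replicates 2 and 3, 21 of the 35 passed, 9 higher (24.9% of all tested genes) and 12 lower (22.9%), both called genes among them; there the fit rests on 2 libraries a group, and 47.8% of all tested genes passed. Without WT cDC1 replicate 1, 8 of the 35 passed, and 22.3% of all tested genes.

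Marker sums and the trend with gene length were measured in the same cDC1 libraries. All 8 cDC2 markers were detected, and their summed level was 672 to 691 CPM in KO cDC1, against 101 to 115 CPM in WT cDC1. The 9 cDC1 markers summed to 6039 to 6816 CPM in KO cDC1, against 6898 to 8550 CPM in WT cDC1. Of these, Xcr1, Irf8, Cadm1, Tlr3 and Itgae were lower in every KO cDC1 library, Cd8a was higher, and Clec9a, Wdfy4 and Batf3 overlapped. Itgae was at 10.1 to 11.3 CPM in KO cDC1, against 131 to 208 CPM in WT cDC1. Cd8a was at 1482 to 1557 CPM in KO cDC1, against 683 to 1190 CPM in WT cDC1. Sums of the 8 monocyte markers were 3018 to 4206 CPM in KO cDC1, against 912 to 2540 CPM in WT cDC1. Most of each sum was Nr4a1, at 2406 to 3463 CPM in KO cDC1 and 795 to 2352 CPM in WT cDC1. Ly6c2, Csf1r, Fcgr1 and Cd14 overlapped between KO and WT, while Ccr2, Ms4a4c and Cx3cr1 were higher in every KO cDC1 library. Ccr2 was at 464 to 625 CPM in KO cDC1, against 42.6 to 114 CPM in WT cDC1. Ms4a4c was at 56.4 to 62.8 CPM, against 9.62 to 15.3 CPM, and Cx3cr1 at 6.83 to 7.40 CPM, against 1.38 to 2.09 CPM. The 12 macrophage markers summed to 213 to 303 CPM in KO cDC1, against 151 to 324 CPM in WT cDC1, which overlap. Among them Cd163 was at 24.6 to 27.4 CPM in KO cDC1, against 1.15 to 1.56 CPM in WT cDC1. Spic and Axl were also higher in every KO cDC1 library, Vcam1 was lower, and the rest overlapped. The Spearman correlation of a gene's deviation with gene length across genes was 0.30 to 0.41 in the KO cDC1 libraries and 0.45, -0.24 and -0.34 in WT cDC1 replicates 1, 2 and 3, so that WT replicate 1 lay above the KO libraries. The part of these measures in the differences of Ppt1, Galc and the others was not tested. With an offset for gene length the log2 fold changes of Ppt1 and Galc were -1.30 and -1.93, and both passed.

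**Figure D5:**
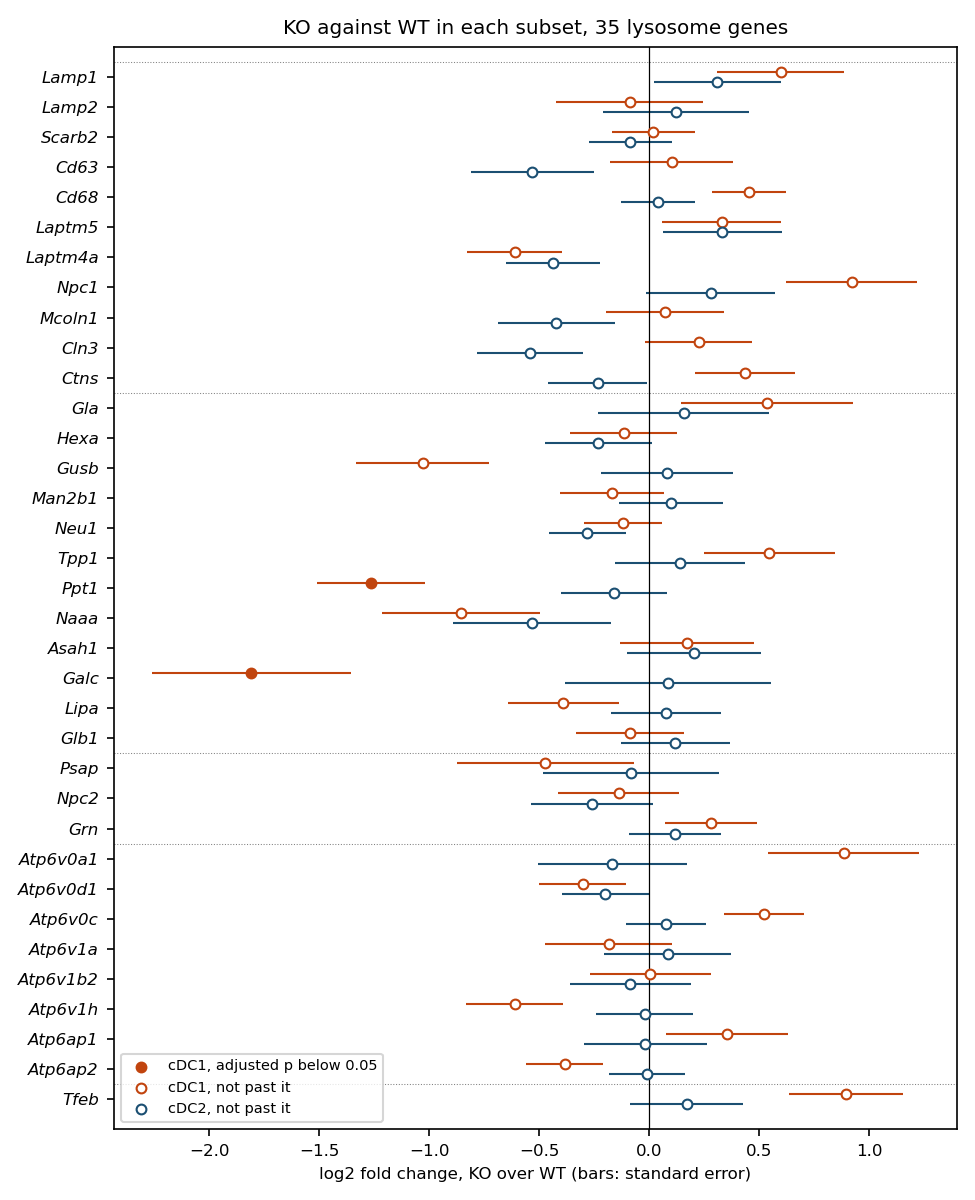
Log2 fold change of KO over WT for each of the 35 lysosome genes in cDC1 (orange, upper point) and in cDC2 (blue, lower point; libraries labelled KO), with bars of 1 standard error and filled points for an adjusted p below 0.05. The filled points are Ppt1 at -1.27 and Galc at -1.81 in cDC1, and no point of cDC2 is filled.

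In cDC2, 0 of the 35 genes differed between libraries labelled KO and WT, and 0 of all tested genes did (0%) in edgeR, as in DESeq2. At an unadjusted p below 0.05 in edgeR there was 1 of the 35, Cln3, and 271 of all 13415 tested genes. The median log2 fold change was -0.01 over the 35 genes and 0.02 over all tested genes, and the values ran from -0.54 for Cln3, a membrane protein mutated in juvenile Batten disease, to 0.33 for Laptm5. Libraries did not overlap for 3 genes, all lower in those labelled KO (2.55% of all tested genes were). Among them were Cln3 at 21.3, 24.3 and 23.1 CPM against 26.1, 32.4 and 41.6 CPM in WT and Laptm4a at 149, 152 and 164 CPM against 204, 203 and 223 CPM in WT. The third was Neu1, and none was apart in the other direction (3.33%). The exons of Cln3 share 442 bases (7.65%) with those of Apobr on the opposite strand.

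Ppt1, called in cDC1, was at 175, 160 and 158 CPM in cDC2 libraries labelled KO, against 213, 164 and 173 CPM in WT cDC2. The values overlap (-0.16, SE 0.24, 95% confidence interval -0.72 to 0.40, adjusted p = 1). Galc was at 4.61, 1.15 and 1.68 CPM in cDC2 libraries labelled KO, against 1.89, 3.67 and 1.37 CPM in WT cDC2, and replicate 1 of those labelled KO was the highest of the 6.

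For some genes the libraries numbered 1 went against the others in cDC2. Lamp1 was at 335, 597 and 627 CPM in libraries labelled KO, against 610, 335 and 313 CPM in WT: it was higher in WT among libraries numbered 1 and higher in those labelled KO among the rest. The log2 fold change was 0.31 over all (SE 0.29, adjusted p = 1), 0.92 within replicates 2 and 3 (adjusted p = 0.000248) and -0.86 between the libraries numbered 1. Within replicates 2 and 3 of cDC2, 5 of the 35 genes passed, 2 higher (3.35% of all tested genes), Lamp1 and Asah1 (0.83), and 3 lower (4.37%), Laptm4a (-0.43), Naaa (-0.59) and Psap (-0.83), where 7.72% of all tested genes passed in either direction. For Asah1 and Psap, too, the libraries numbered 1 differed the other way, by -0.89 and 0.69. For Laptm4a and Naaa they differed the same way, by -0.45 and -0.47.

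Whether the KO effect differed between the subsets was tested as an interaction. It passed for 0 of the 35 genes (1.42% of all tested genes passed) by edgeR, with 5 of them at an unadjusted p below 0.05 (1282 of all 13415 tested genes). By DESeq2 it passed for 1, Ppt1 (3.58% of all tested genes). The median interaction was 0.10 over the 35 genes and -0.04 over all tested genes. Ppt1 had an interaction of -1.11 (SE 0.34, adjusted p = 0.194), Galc of -1.89 (SE 0.65, adjusted p = 0.261), Gusb of -1.11 (SE 0.43, adjusted p = 0.366) and Tfeb of 0.73 (SE 0.36, adjusted p = 0.598). By edgeR over all libraries, the fall of Ppt1 and Galc in KO cDC1 is therefore not shown to differ from the effect in cDC2. Within replicates 2 and 3 the interaction passed for 19 of the 35 genes, 8 higher (20.3% of all tested genes) and 11 lower (18.1%), where 38.3% of all tested genes passed in either direction. Ppt1 was among them (-1.43, adjusted p = 5.07e-05) and Galc was not (-0.71, adjusted p = 0.272). With the mouse pool as a block the interaction passed for 0 of the 35 genes and for 116 of all tested genes, against 190 without it.

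Other lysosome genes were counted in 5 lists. For comparison, 3.6% of all tested genes rose and 1.72% fell in KO cDC1. Of 31 other hydrolases, all tested, 0 rose and 3 fell in KO cDC1: Fuca1, the alpha-fucosidase, at 290 ± 17.2 CPM in KO cDC1 and 877 ± 309 CPM in WT cDC1 (-1.60, SE 0.26, adjusted p = 0.00269), and Rnaset2a and Rnaset2b, lysosomal ribonucleases (-1.29, SE 0.26, adjusted p = 0.0126, and -1.38, SE 0.28, adjusted p = 0.0117; calls lost in 7 and 6 of 19 alternatives), whose counts are uncertain because the genes are near-identical copies. Of 15 other pump genes 10 were tested, none passed in KO cDC1, and their median was -0.46 against -0.00 over all tested genes. Of these 10, 1 passed higher and 8 lower within replicates 2 and 3 (24.9% and 22.9% of all tested genes). Of 24 other channels and transporters 23 were tested, and 3 rose and 1 fell in KO cDC1. The peptide and histidine transporter genes Slc15a3 (1.80, SE 0.30, adjusted p = 0.00315) and Slc15a4 (1.03, SE 0.18, adjusted p = 0.0054) and the nucleoside transporter gene Slc29a3 (1.48, SE 0.34, adjusted p = 0.0245, a call lost in 5 of 19 alternatives) rose, and Slc11a1, the metal ion transporter of phagosomes, fell by 2.65 on the log2 scale (SE 0.25, adjusted p = 9.07e-05). Of 17 genes of the Tfeb family and of nutrient sensing on the lysosomal surface, 0 rose and 2 fell in KO cDC1, Rraga (-0.76, SE 0.20, adjusted p = 0.0453) and Lamtor4 (-1.08, SE 0.28, adjusted p = 0.0419), both calls lost in 11 of 19 alternatives. Of 15 genes of sorting to the lysosome, none passed in KO cDC1, and their median was 0.15. Among those that did not pass was Igf2r, at 2.87 ± 0.96 CPM in KO cDC1 and 24.2 ± 12.5 CPM in WT cDC1. In replicates 2 and 3 of cDC1 alone, 6 sorting genes passed higher and 2 lower, as did 3 and 11 other hydrolases, 7 and 5 channels and transporters, and 4 and 6 genes of the Tfeb family list. There, 24.9% of all tested genes were higher and 22.9% lower. In cDC2 none of these 96 tested genes passed between libraries labelled KO and WT over all libraries. In replicates 2 and 3 of cDC2 alone, 2 other hydrolases passed higher and 2 lower, 1 gene of the Tfeb family list higher and 1 lower, and 1 pump gene and 1 channel or transporter lower. Of all tested genes, 3.35% were higher and 4.37% lower there.

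Between the WT subsets these lists held calls in both directions, where 10.4% of all tested genes were higher and 10.9% lower. Among the other hydrolases 3 were higher in WT cDC1, among them Fuca1 (2.59) and Arsb, an arylsulfatase (2.38), and 3 were lower, led by Acp5, the tartrate-resistant acid phosphatase (-2.93). Of the other pump genes, Atp6v0a2 was higher (1.79) and Tcirg1 lower (-1.19), both of which encode forms of the large V0 subunit. The Tcirg1 call ended in 5 of 19 alternatives, the mouse pool block among them (adjusted p = 0.0567). Of the other channels and transporters 3 were higher and 5 lower, with Laptm4b, a paralog of Laptm4a, at 98.9 ± 5.48 CPM in WT cDC1 and 2.16 ± 1.21 CPM in WT cDC2 (5.46) and Slc15a4 at -2.32. Among these calls, those of Slc38a9, Slc17a5 and Slc66a1 ended in 13, 4 and 4 of 19 alternatives. The Tfeb family and nutrient sensing list had 3 higher and 2 lower, among them Fnip2 (4.78) and Flcn (-1.35), which encode partners in one complex, and the sorting list had 5 higher and 1 lower, with Igf2r, the mannose 6-phosphate receptor that carries hydrolases to endosomes, at 24.2 ± 12.5 CPM in WT cDC1 and 0.85 ± 1.17 CPM in WT cDC2 (5.09). The sorting calls of Gga1, Rab7 and Ap3d1 ended in 11, 6 and 4 of 19 alternatives.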

How the data were processed

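Polyadenylated RNA of splenic cDC1 and cDC2 was sequenced in 12 libraries, 3 in each of 4 groups taken from the labels. The authors deposited raw read counts per Entrez gene with a gene length in bases. Reads were counted with featureCounts on GRCm38 (mm10), per the submitters' processing notes; the aligner, the versions and the strand setting are not given in the sources used here. RefSeq's GRCm38 annotation gave symbols for 25275 of 27179 genes, and GENCODE M21 the exon overlaps.

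Counts were scaled by TMM, given as CPM (and RPKM by the deposited length) and tested in edgeR 4.0.16 (R 4.3.3). The fit kept genes by filterByExpr (13415), took all 12 libraries, 4 group means, robust quasi-likelihood dispersions and no block, and adjusted p over all tested genes by Benjamini-Hochberg, with a threshold of 0.05. Standard errors were taken as log2 fold change divided by root F (median 0.33 over genes in KO against WT cDC1). Nothing says how the pools relate beyond their numbers, so p-values measure the spread between these pools. Depth was 11330503 to 36761685 reads, so counting error is small beside the spread between libraries for all but the lowest genes. The code was tested on simulated counts.

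Values in every library are given for Lamp1, Lamp2 and Tfeb and for lysosome genes called in KO against WT or the interaction. They are also given for the 4 called per direction with the smallest p between subsets. Psap was added after its values were seen. Outside this rule, Cln3 and Laptm4a are given per library in cDC2, where their libraries did not overlap, and so is Slc11a1. At most 4 called genes are named per other list and comparison, except for the channels and transporters between the WT subsets. The genes, lists and alternatives were chosen with earlier results of these data known. Alternatives were RLE scaling, no filter, DESeq2 1.42.0, only the compared groups, a replicate block, replicates 2 and 3 alone, gene length offsets and leaving out each library.

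Each mouse pool gave a library of either subset, per the labels, so pools pair cDC1 with cDC2; residual correlations within a pool were 0.26, 0.14 and 0.14 in KO and -0.20, -0.11 and -0.07 in WT.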

Additional observations from a re-analysis of the deposited data

Results flagged for a closer look

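Among the other lysosomal channels and transporters, the KO effect on Slc11a1, a metal ion transporter of phagosomes, differed between the subsets, with an interaction of -1.93 (-1.92865 unrounded, SE 0.33, adjusted p = 0.0106 in edgeR's quasi-likelihood test). Slc11a1 was at 21.1, 19.5 and 22.4 CPM in KO cDC1, against 96.5, 152 and 148 CPM in WT cDC1, and at 14.2, 11.1 and 10.6 CPM in cDC2 libraries labelled KO, against 15.9, 19.4 and 24.4 CPM in WT cDC2. The libraries of KO cDC1 and those labelled KO of cDC2 were lower without overlap, and the log2 fold changes were -2.65 in cDC1 (adjusted p = 9.07e-05) and -0.73 in cDC2 (adjusted p = 1). Within replicates 2 and 3 the interaction was -1.87 (adjusted p = 5.41e-05). By edgeR over all libraries, 0 of the 35 lysosome genes had an interaction that passed (1.42% of all tested genes), with 5 at an unadjusted p below 0.05. In DESeq2 1 of the 35 passed (3.58% of all tested genes), and 19 passed within replicates 2 and 3 (38.3%).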

How the results depend on the processing

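With 3 libraries a group, small differences and low genes such as Galc in cDC2 are limited by the spread between libraries. Of the 35 genes, the count called in KO against WT cDC1 was 2; it was 7 in DESeq2, 5 with gene length offsets, 21 within replicates 2 and 3, and 0 to 8 when single libraries were left out. In cDC2 the count was 0, 5 within replicates 2 and 3, and 0 without any one library. Between subsets the count in WT was 18, 10 with only the compared groups, 28 within replicates 2 and 3 and 12 to 19 without single libraries, and in KO it was 12 and 8 to 13. The interaction count was 0, 1 in DESeq2, 19 within replicates 2 and 3 and 0 to 2 without single libraries. Over all tested genes, calls in KO against WT cDC1 were 714, against 1318 in DESeq2, 980 with gene length offsets and 384 with the replicate number as a replicate block. They were 6438 within replicates 2 and 3 and 318 to 3052 without single libraries. In cDC2 the calls were 0 and 1039 within replicates 2 and 3. Between subsets they were 2846 in WT (1537 with only the compared groups, 6391 within replicates 2 and 3, 2049 to 3266 without single libraries) and 2264 in KO (4172, 6620, and 1209 to 3382). The interaction count was 190, with 480 in DESeq2, 302 with gene length offsets, 116 with the mouse pool as a replicate block, 5157 within replicates 2 and 3 and 110 to 501 without single libraries. Only the fits with fewer groups or libraries test fewer samples by construction; for the others the cause was not tested. Lamp2 in KO against WT cDC1, which did not pass, ran from -0.26 to 0.11 without single libraries, positive without WT cDC1 replicate 3.

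Replicate numbers were not taken to pair KO with WT: for numbers 1, 2 and 3, the residuals of KO and WT libraries correlated at 0.02, -0.07 and 0.11 (cDC1) and at -0.05, -0.05 and -0.06 (cDC2). In all, 2 of 12 libraries correlated best with their own number. Yet the libraries numbered 1 of all 4 groups shared low erythroid and platelet markers, so these correlations cannot exclude a feature common to a number. Whether the number marks a shared step was not tested. With the number as a replicate block 2 of the 35 genes passed in cDC1, Ppt1 and Gusb, where 2.86% of all tested genes passed. In cDC2 0 of the 35 passed, and 0% of all tested genes.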
